A study of Mus musculus with 12 samples.

Results

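The miR-15/16 family, made up here of miR-15a-5p, miR-15b-5p, miR-16-5p, miR-195a-5p, miR-497a-5p and miR-322-5p, accounted for 6 of the 1881 mouse miRNAs on the arrays. In the files they carry the names mmu-miR-15a-5p, mmu-miR-15b-5p, mmu-miR-16-5p, mmu-miR-195a-5p, mmu-miR-497a-5p and mmu-miR-322-5p. They were chosen by their shared seed and their known role in cell cycle and survival, and miR-15b-5p was also selected on its measured change, among the largest of the series. Its values are therefore given as a description, without a test, and counts of members cover the other 5. MiRNAs were profiled in the heart of male C57BL6/J mice, 5 months old by the labels, on 12 single-colour arrays, with 3 hearts in each of 4 groups. Control mice received no streptozotocin and no pargyline (C). A second set of control mice received pargyline, an inhibitor of monoamine oxidase, at 50 mg/kg/day for 12 weeks (C + P). Diabetic mice received streptozotocin, which destroys pancreatic beta cells, at 50 mg/kg/day on 5 days, from 6 to 7 weeks of age, and counted as diabetic from a blood glucose of 17 mM (D). The last group received streptozotocin and then pargyline on the same schedules (D + P). The model is therefore a chemical form of type 1 diabetes, with any direct action of streptozotocin on the heart included in D and D + P. The labels number each sample by its mouse, so the spread between arrays includes the spread between animals. Their extraction note speaks of macrophages, whereas the tissue and source fields give heart, and 5 of 6 cardiomyocyte miRNAs were detected on all 12 arrays.

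MiRNAs of this family bind messenger RNAs through the seed, bases 2 to 8 of the mature strand. Cyclins, cyclin-dependent kinases, checkpoint kinases and the survival protein BCL2 are among their known targets, and for that reason the family is known for holding cells out of division. In the mouse heart miR-195a is known to rise after birth, when cardiomyocytes leave the cell cycle. The genes lie in paired clusters: miR-15a with a copy of miR-16, miR-15b with another copy of miR-16, miR-497a with miR-195a, and miR-322, the mouse counterpart of human miR-424, with miR-503.

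The mature sequences of all 6 members were matched by name in RefSeq (GRCm38.p6). They are shown because the shared seed defines the family, while the bases after it are what tells one member from another on an array. Capitals mark the seed, and each sequence runs 5′ to 3′.
miR-15a-5p: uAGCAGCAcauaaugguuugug
miR-15b-5p: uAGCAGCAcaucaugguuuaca
miR-16-5p: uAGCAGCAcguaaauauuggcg
miR-195a-5p: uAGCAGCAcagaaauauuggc
miR-497a-5p: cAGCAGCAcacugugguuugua
miR-322-5p: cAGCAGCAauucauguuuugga

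Counted without gaps from the 5′ end, miR-16-5p and miR-195a-5p were identical at 19 of 21 positions, the closest pair in the family. MiR-15a-5p and miR-15b-5p were identical at 18 of 22 positions and shared their first 11 bases, with the differences A12C, G20A, U21C and G22A read from miR-15a-5p to miR-15b-5p (positions from 1 at the 5′ end). MiR-497a-5p and miR-322-5p carry U1C relative to miR-15b-5p and shared 8 leading bases with each other. The least alike pair, miR-16-5p and miR-497a-5p, were identical at 11 of 22 positions.

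On GRCm38.p6, mature miR-15b-5p lies at chr3:69009775-69009796 on the plus strand, and 1 copy of miR-16-5p lies downstream at chr3:69009918-69009939. Both hairpins fall within the span of Smc4, which codes for a condensin subunit, with 66 bases between them. MiR-15a-5p lies at chr14:61632075-61632096 on the minus strand, and the other copy of miR-16-5p at chr14:61631936-61631957, both within the long noncoding RNA gene Dleu2 and 54 bases apart as hairpins. The copies of miR-16-5p have identical mature strands, so the array cannot assign its signal to either locus. MiR-497a-5p at chr11:70234730-70234751 and miR-195a-5p at chr11:70235062-70235082 lie on the plus strand with 241 bases between their hairpins. MiR-322-5p at chrX:53054306-53054327 lies on the minus strand within the noncoding gene C430049B03Rik, 200 bases from the miR-503 hairpin.

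In RefSeq 10 of 1679 mature mouse miRNAs held the family seed AGCAGCA at bases 2 to 8, and all 10 were on the array. The 6 members were detected on all 12 arrays, and the other 4 (miR-195b, miR-6342, miR-6353 and miR-6419) on none. Their sequences bear on how specific the array readings are, since some come close to a member.
miR-195b: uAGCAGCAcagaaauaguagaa
miR-6353: uAGCAGCAcguauuuauccuauu
MiR-195b shared its first 16 bases with miR-195a-5p, and miR-6353 shared its first 12 with miR-16-5p. Neither was detected where miR-195a-5p and miR-16-5p were, and signal passing between the members themselves was not tested.

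Total brightness differed between arrays. The number of miRNAs detected was 144 to 163 on C arrays, 214 to 253 on C + P, 165 to 203 on D and 187 to 218 on D + P, and the median unnormalized change of the 128 miRNAs detected on all 12 arrays was 0.77 on the log2 scale in D against C and 1.15 in C + P against C. Cyclic loess normalization brought these medians to 0.02 and -0.04. Of the array's own control features, which are not mouse miRNAs, 10 were detected on every array, and their mean log2 signal moved with the groups: 10.29 to 10.56 on C arrays and 11.03 to 11.48 on C + P arrays, then 11.07 to 11.21 on D arrays and 10.29 to 11.10 on D + P arrays. D + P replicate 1, at 10.29, stood with the C arrays. C and D shared a slide and C + P and D + P the other, so the slide cannot be told apart from pargyline, and on both slides the non-diabetic arrays filled 1 row and the diabetic arrays the other, so array row and diabetes cannot be told apart either.

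Signals as deposited are given first, in the scanner software's units and without normalization. MiR-15b-5p had signals of 12.3, 5.41 and 7.02 in C, 26.8, 35.9 and 59.8 in C + P, 52.2, 44.5 and 30.6 in D, and 5.30, 21.2 and 30.1 in D + P. All C arrays lay below every C + P and D array, while D + P replicate 1 lay just under the C arrays and the other D + P arrays above them. At those low signals the scanner's own error reached 23.4% of the miR-15b-5p signal, against at most 13.6% for miR-322-5p and 9.77% for miR-195a-5p.

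MiR-15a-5p had signals of 49.9, 44.8 and 44.5 in C, 82.7, 105.3 and 185.4 in C + P, 108.4, 114.8 and 85.7 in D, and 30.3, 80.4 and 103.8 in D + P. The signals of miR-16-5p, its chromosome 14 neighbour, were 68.7, 57.7 and 59.1 in C, 138.5, 161.1 and 261.8 in C + P, 184.2, 149.9 and 110.8 in D, and 54.8, 114.8 and 146.0 in D + P. For both, D + P replicate 1 was the dimmest of the 12 arrays. The same array was lowest for miR-195a-5p, whose signals were 36.4, 24.4 and 27.8 in C, 56.5, 79.1 and 134.5 in C + P, 80.7, 86.1 and 58.9 in D, and 21.2, 52.9 and 69.1 in D + P. MiR-497a-5p, encoded beside it, spread less, with 43.1, 33.9 and 35.5 in C, 48.2, 55.3 and 95.3 in C + P, 62.5, 63.0 and 51.7 in D, and 41.0, 56.7 and 64.6 in D + P. MiR-322-5p read 17.2, 14.7 and 16.1 in C, 40.1, 52.6 and 87.5 in C + P, 60, 61.5 and 39.4 in D, and 11.7, 38.6 and 49.8 in D + P. In all 6 the C arrays lay below the C + P and D arrays before normalization, as the brightness of the arrays also did.

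**Figure D1:**
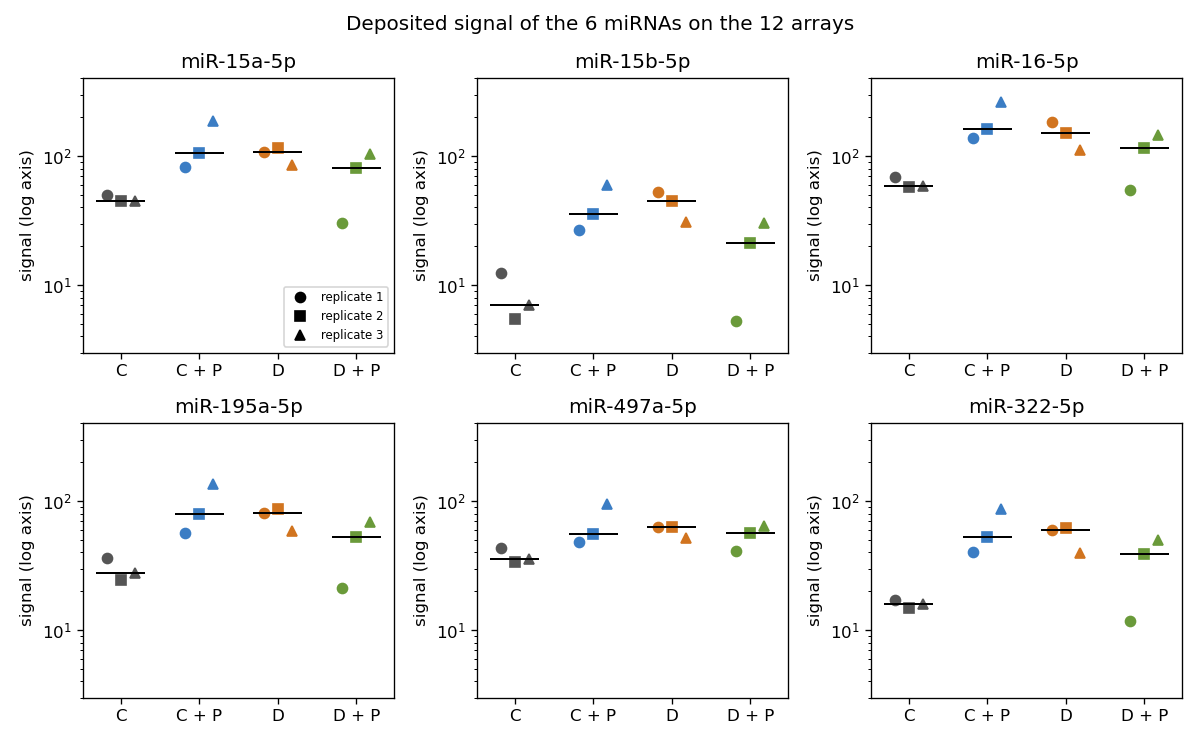
Deposited signal (log axis, scanner units, no normalization) of each of the 6 miRNAs on the 12 arrays, by group, with symbols for replicates and lines at group medians. MiR-15b-5p runs from 5.30 to 59.8, and D + P replicate 1 (green circle) lies below the C arrays in all panels but that of miR-497a-5p, where it lies within their range.

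After normalization, levels are in log2 units and comparable for 1 miRNA across arrays, not between miRNAs. MiR-15b-5p averaged 3.51 ± 0.46 in C, 4.80 ± 0.16 in C + P, 5.33 ± 0.25 in D and 3.74 ± 1.01 in D + P (SD, n = 3 each). D lay above C + P and C + P above D + P with no shared range, while D + P and C overlapped. MiR-322-5p averaged 4.56 ± 0.03, 5.36 ± 0.14, 5.60 ± 0.27 and 4.71 ± 0.71 in C, C + P, D and D + P, and neighbours in the order D, C + P, D + P, C overlapped throughout. MiR-16-5p followed the same order, at 6.52 ± 0.12 in C, 7.00 ± 0.01 in C + P, 7.03 ± 0.16 in D and 6.56 ± 0.26 in D + P. There C + P was clear of D + P and the other neighbours overlapped. Over all 128 miRNAs C + P and D + P did not overlap for 43%, and D and C + P were not counted.

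In miR-195a-5p and miR-15a-5p the D + P mean came last. MiR-195a-5p averaged 5.42 ± 0.21 in C, 5.90 ± 0.19 in C + P, 6.10 ± 0.19 in D and 5.34 ± 0.46 in D + P. MiR-15a-5p averaged 6.10 ± 0.10, 6.37 ± 0.12, 6.55 ± 0.13 and 5.93 ± 0.48 in the same groups. For both, D overlapped C + P, C + P lay clear of C, and C overlapped D + P. MiR-497a-5p ran in another order, with 5.78 ± 0.12 in C, 5.77 ± 0.09 in D, 5.65 ± 0.11 in D + P and 5.49 ± 0.05 in C + P, where only C + P lay clear of its neighbour. Of all 128 miRNAs 75.8% had C + P clear of C and 43% had C + P clear of D + P.

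**Figure D2:**
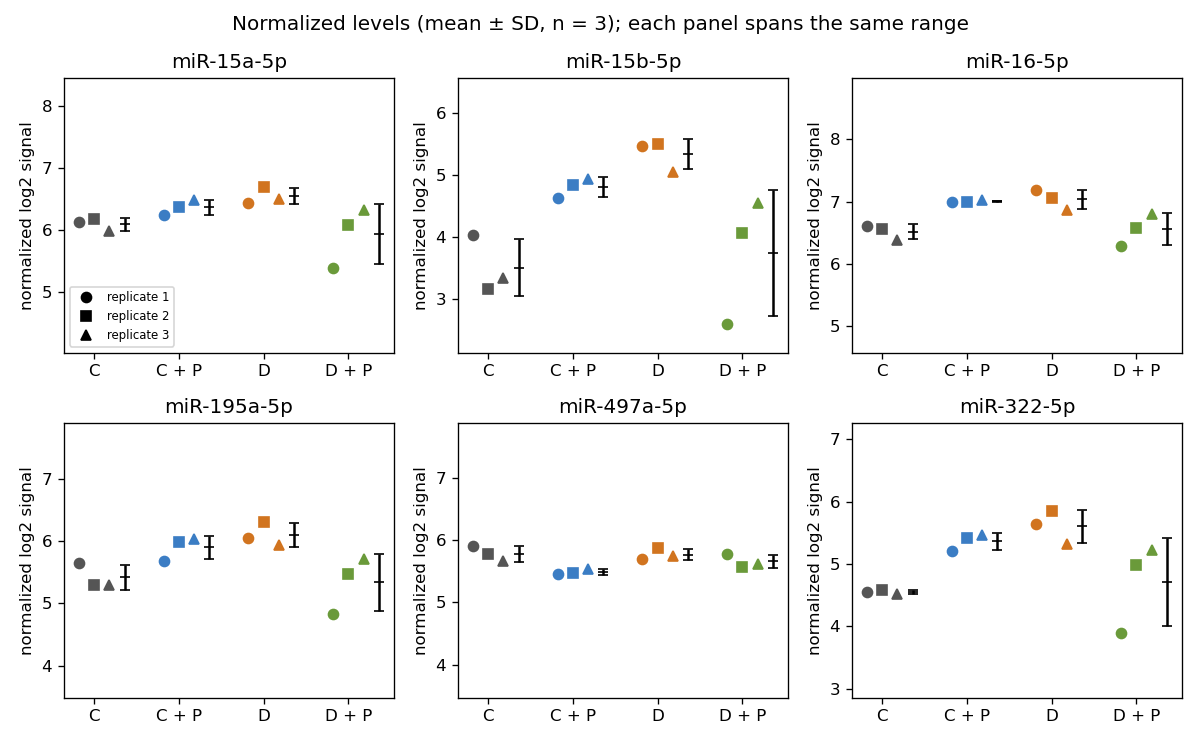
Normalized log2 signal of the 6 miRNAs by group, with replicates as symbols and mean ± SD (n = 3) in black; all panels span the same range of log2 units. All panels but that of miR-497a-5p show high D and C + P arrays and a wide D + P group, with an SD of 1.01 for miR-15b-5p.

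Diabetes was compared first in hearts without pargyline. In D against C the cell cycle brake miR-195a-5p rose by 0.68 on the log2 scale (SE 0.21, 1.60-fold, adjusted p = 0.022), miR-16-5p by 0.52 (SE 0.15, 1.43-fold, adjusted p = 0.014) and miR-322-5p by 1.05 (SE 0.28, 2.07-fold, adjusted p = 0.011), all by limma's moderated test with Benjamini-Hochberg adjustment. These were 3 of the 5 members tested, all higher, where 50% of the 128 miRNAs tested passed and 24.2% passed as higher. MiR-15a-5p differed by 0.45 (SE 0.20, adjusted p = 0.079) and miR-497a-5p by -0.01 (SE 0.12, 95% interval -0.27 to 0.25, adjusted p = 0.95), and neither passed. The median over the 5 was 0.52, beside 0.02 over all 128. MiR-15b-5p, the member picked for its size, differed by 1.82 (SE 0.40, 3.54-fold), the change ranked 3 by size of the 128. The arrays of D and C did not overlap for 4 of these 5 members and for 69.5% of all miRNAs tested. With the control feature signal as a covariate, chosen after the data had been seen, none of the 5 passed (0 also at an unadjusted p of 0.05), and miR-322-5p differed by 0.26 (adjusted p = 0.73), miR-16-5p by 0.22 (adjusted p = 0.62), miR-195a-5p by 0.09 (adjusted p = 0.91) and miR-15a-5p by -0.08 (adjusted p = 0.91). That fit left 1 of the 128 miRNAs past the threshold. The control feature signals of C and D did not overlap. Its values for D against C therefore lean on a trend within groups, carried across that gap. Without C replicate 3 only 1 of the 5 passed, and with the slide of C and D normalized and fitted alone 4 did. Over all miRNAs 42 of 130 passed without C replicate 3 and 80 of 128 with that slide alone.

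Pargyline in hearts without diabetes was compared next. In C + P against C miR-16-5p rose by 0.48 (SE 0.15, 1.40-fold, adjusted p = 0.030 by limma) and miR-322-5p by 0.81 (SE 0.28, 1.75-fold, adjusted p = 0.038). Here 2 of the 5 members passed, against 36.7% of all miRNAs and 18% as higher. MiR-195a-5p differed by 0.48 (SE 0.21, adjusted p = 0.090), miR-15a-5p by 0.27 (SE 0.20, adjusted p = 0.29) and miR-497a-5p by -0.29 (SE 0.12, adjusted p = 0.073). MiR-15b-5p differed by 1.29 (SE 0.40, 2.45-fold), not tested. The 5 members tested had C + P arrays that did not overlap with C, as had 75.8% of all miRNAs. Neither call held in the fit with the control feature signal, where none of the 5 passed (0 at an unadjusted p of 0.05) and the signs of miR-15a-5p (-0.31), miR-15b-5p (-0.12), miR-195a-5p (-0.18) and miR-322-5p (-0.07) turned. That fit left 2 of the 128 miRNAs past the threshold. C and C + P did not overlap in control feature signal either, so the same limit holds. The count of members ran from 0, without any single C + P array or without C replicate 2 or 3, to 4 without D + P replicate 1. In the fits where it was 0, an unadjusted p under 0.05 was found for 2 or 3 members. Between 3 and 23 of all 128 to 131 miRNAs passed in those fits, against 79 of 128 without D + P replicate 1.

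Pargyline in diabetic hearts gave the opposite direction. In D + P against D, miR-195a-5p fell by 0.76 on the log2 scale (SE 0.21, 1.69-fold, adjusted p = 0.019 by limma), miR-322-5p fell by 0.90 (SE 0.28, adjusted p = 0.024), miR-15a-5p fell by 0.61 (SE 0.20, adjusted p = 0.030) and miR-16-5p fell by 0.48 (SE 0.15, adjusted p = 0.024). Thus 4 of the 5 members passed and all 4 were lower, where 53.9% of the 128 miRNAs passed, 27.3% as lower and 26.6% as higher. MiR-497a-5p differed by -0.11 (SE 0.12, 95% interval -0.37 to 0.15, adjusted p = 0.40). MiR-15b-5p differed by -1.59 (SE 0.40, 3.01-fold lower), the change ranked 1 by size among the 128, and by -0.99 without D + P replicate 1. The groups did not overlap for 4 of the 5 members tested, against 56.2% of all miRNAs. Without D + P replicate 1 the changes shrank to -0.32 for miR-15a-5p, -0.33 for miR-16-5p, -0.47 for miR-195a-5p and -0.47 for miR-322-5p, and only the last passed. Without D replicate 1 also 1 of the 5 passed, and without D replicate 2 none did (4 at an unadjusted p of 0.05). Over all miRNAs 29 of 128 passed without D + P replicate 1, 26 of 128 without D replicate 1 and 14 of 129 without D replicate 2. With the control feature signal as a covariate none of the 5 passed (2 at an unadjusted p of 0.05), and 0 of the 128 miRNAs did. The values were then -0.32 for miR-15a-5p and miR-16-5p, -0.43 for miR-195a-5p and -0.46 for miR-322-5p.

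Diabetes under pargyline was the comparison in which limma passed none of the 5 members (3 at an unadjusted p of 0.05, and none of them by the methods' t-test), beside 13.3% of all miRNAs, 7.81% as lower and 5.47% as higher. In D + P against C + P, miR-322-5p differed by -0.66 (SE 0.28, adjusted p = 0.099), miR-195a-5p by -0.56 (SE 0.21, adjusted p = 0.075), miR-16-5p by -0.45 (SE 0.15, adjusted p = 0.058), miR-15a-5p by -0.43 (SE 0.20, adjusted p = 0.12) and miR-497a-5p by 0.17 (SE 0.12, adjusted p = 0.28). MiR-15b-5p differed by -1.06 (SE 0.40). The groups were free of overlap for 2 of the 5 members tested (miR-16-5p and miR-497a-5p), against 43% of all miRNAs. Without D + P replicate 1 the values were -0.23 for miR-322-5p, -0.29 for miR-195a-5p, -0.31 for miR-16-5p, -0.15 for miR-15a-5p and -0.49 for miR-15b-5p, with none of the 5 passing (1 at an unadjusted p of 0.05). Without D + P replicate 3 the count was 4, and with their slide alone it was 0 (2 at an unadjusted p of 0.05). Among all miRNAs 73 of 128 passed without D + P replicate 3, against 17 of 128 with all arrays kept, so the rise was not confined to the family. Without D + P replicate 1 10 of 128 passed, and with that slide alone 1 of 128.

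The interaction, tested next, is how far D + P against C + P differed from D against C. Slide lay with pargyline and array row with diabetes, so the interaction cannot be told apart from them. The interaction passed for 4 of the 5 members, all with negative values, where 70.3% of the 128 miRNAs passed and 35.2% passed as lower. Its values were -0.88 (SE 0.28, adjusted p = 0.017 by limma) for miR-15a-5p, -0.96 (SE 0.21, adjusted p = 0.0035) for miR-16-5p, -1.24 (SE 0.30, adjusted p = 0.0045) for miR-195a-5p and -1.70 (SE 0.39, adjusted p = 0.0035) for miR-322-5p. MiR-497a-5p stood apart at 0.18 (SE 0.17, adjusted p = 0.37), and miR-15b-5p reached -2.88 (SE 0.56), untested. These 4 also passed with any 1 array left out, with miR-15a-5p at -0.58 without D + P replicate 1. Between 81 and 96 of all 128 to 131 miRNAs passed in those fits. With each array scaled to its 75th percentile over detected miRNAs miR-15a-5p did not pass (-0.67, adjusted p = 0.066). With the control feature signal as a covariate none passed (0 at an unadjusted p of 0.05), nor did any of the 128 miRNAs. The values were then -0.01 for miR-15a-5p, -0.48 for miR-16-5p, -0.26 for miR-195a-5p and -0.39 for miR-322-5p.

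**Figure D3:**
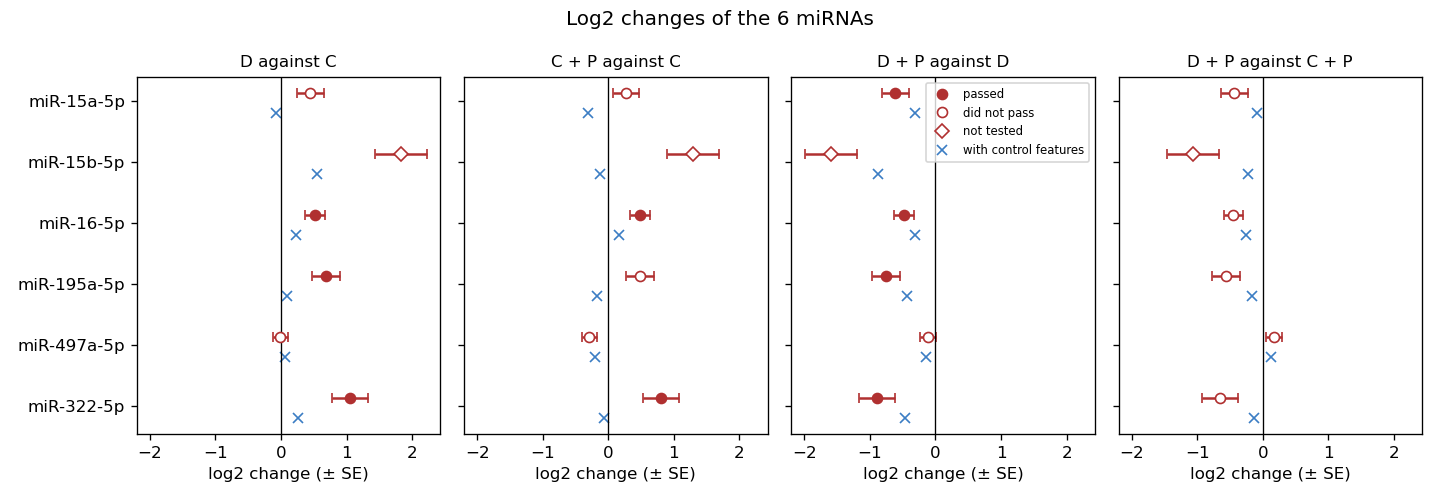
Log2 change ± SE (red) of the 6 miRNAs in 4 comparisons, filled where the adjusted p passed 0.05 and as diamonds for miR-15b-5p, which was not tested; blue crosses give the value with the control feature signal as a covariate. In D against C miR-322-5p moves from 1.05 to 0.26 and miR-15b-5p from 1.82 to 0.54 under that covariate.

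All members but miR-497a-5p had normalized levels that moved with the control features. The arrays with the lowest control features (C and D + P replicate 1) held the lowest levels of miR-15b-5p and miR-322-5p, and D + P replicates 2 and 3, at 10.86 and 11.10, lay between them and the D arrays for miR-15b-5p. MiR-497a-5p ran flat or slightly downward along the same axis. Since the control features differed between the groups, array signal and group cannot be fully told apart, and beyond the covariate above its part was not tested. D + P spread widest in them, from 10.29 to 11.10, and so weighs most in the trend that the covariate fits.

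**Figure D4:**
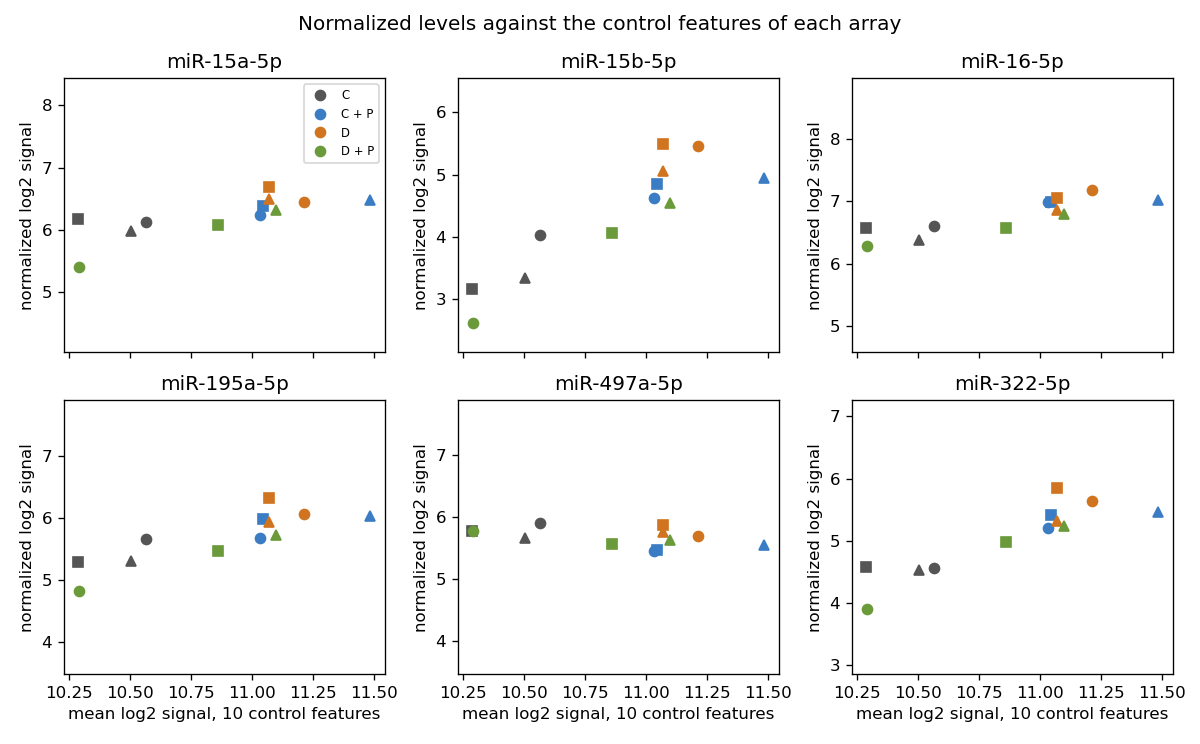
Normalized log2 signal of each miRNA against the mean log2 signal of 10 control features on the same array; colours are groups and symbols replicates as in the plots by group. C arrays and D + P replicate 1 lie at 10.29 to 10.56 on the horizontal axis and hold the lowest values of miR-15b-5p and miR-322-5p.

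Members of a cluster are transcribed together, so their signals were set against each other on each array, with no normalization. The height of such a difference depends on the probes, and only its change between groups is read. For miR-195a-5p minus miR-497a-5p the log2 difference was -0.24, -0.47 and -0.35 on C arrays, 0.23, 0.52 and 0.50 on C + P, 0.37, 0.45 and 0.19 on D, and -0.95, -0.10 and 0.10 on D + P. The C arrays were all below 0 and the C + P and D arrays all above it. As group means this was a change of 0.69 in D against C, 0.77 in C + P against C, -0.65 in D + P against D and -0.73 in D + P against C + P, with no overlap of arrays in any of the 4. How often other pairs of miRNAs separate in this way was not counted. In these unnormalized signals the partners moved in the same direction in all 4, by unequal amounts. The changes of miR-195a-5p and miR-497a-5p were 1.35 and 0.66 in D against C, and 1.54 and 0.76 in C + P against C. They were -0.80 and -0.15 in D + P against D, and -0.98 and -0.25 in D + P against C + P. After normalization the difference changed by 0.69, 0.77, -0.65 and -0.73 in these comparisons, and in the normalized fit with the control feature signal by 0.025, 0.035, -0.28 and -0.29.

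On chromosome 3, miR-15b-5p minus miR-16-5p averaged -2.99 ± 0.47 in C, -2.22 ± 0.13 in C + P, -1.81 ± 0.05 in D and -2.69 ± 0.59 in D + P (SD, n = 3 each). It differed by 1.18 between D and C, by 0.77 between C + P and C and by -0.89 between D + P and D, each without overlap, and by -0.47 between D + P and C + P with overlap. Here too, overlap was not counted over other pairs. Part of the miR-16-5p signal may come from its chromosome 14 copy, and miR-15b-5p was picked for its change, so this pair is a description. After normalization the 4 changes were 1.31, 0.81, -1.11 and -0.61, and with the control feature signal added to that fit 0.32, -0.28, -0.57 and 0.035. On chromosome 14, miR-15a-5p minus miR-16-5p stayed nearer to level, with changes of -0.09 in D against C, -0.21 in C + P against C, -0.11 in D + P against D and -0.0012 in D + P against C + P. Arrays of the groups were apart only in C + P against C.

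**Figure D5:**
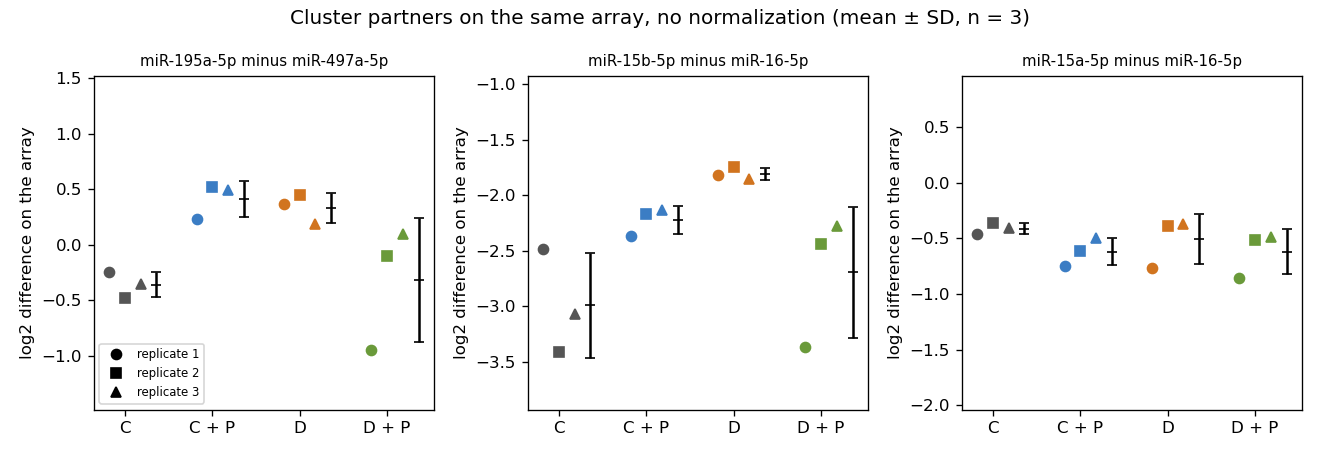
Log2 difference of unnormalized signals between cluster partners on each array, by group, with mean ± SD (n = 3) in black; all panels span the same range. MiR-195a-5p minus miR-497a-5p is below 0 on the C arrays and above 0 on C + P and D arrays, while miR-15a-5p minus miR-16-5p differs by -0.09 between the D and C means.

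Within the family, after centring each miRNA on its mean over the 12 arrays, miR-15a-5p and miR-195a-5p had the most alike profiles, with a root mean square difference of 0.14 log2 units, although they come from different chromosomes. MiR-15b-5p and miR-497a-5p were the least alike at 0.92. MiR-195a-5p and its cluster partner miR-497a-5p differed by 0.43, more than miR-195a-5p and miR-16-5p, at 0.18. Among the 122 other miRNAs detected on all arrays, those most like each member were miR-152-3p (0.12) and miR-199b-5p (0.13) for miR-15a-5p, miR-34a-5p (0.10) and miR-149-5p (0.12) for miR-16-5p, miR-148a-3p (0.12) and miR-107-3p (0.15) for miR-195a-5p, and miR-199a-3p and let-7f-5p (both 0.12) for miR-322-5p. The nearest to miR-497a-5p were let-7i-5p and miR-99a-5p, both at 0.11. For miR-15b-5p they were miR-26b-5p at 0.32 and miR-139-5p at 0.35. The measure is not scaled to a miRNA's own range over the arrays, so its size is not compared between members. That range was 2.88 log2 units for miR-15b-5p, 0.89 for miR-16-5p and 0.44 for miR-497a-5p. These are descriptions over 12 arrays that share groups and brightness.

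MiR-107-3p carries the family heptamer from base 1 rather than base 2, as does miR-103-3p, and both were detected on all 12 arrays. MiR-503-5p, the partner of miR-322 on the X chromosome, has a seed that ends differently and was detected on none. Capitals again mark bases 2 to 8.
miR-107-3p: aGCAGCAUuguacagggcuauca
miR-503-5p: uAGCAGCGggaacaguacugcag
None of the 7 opposite arms of the member hairpins was detected on any array, nor any of 6 further relatives, which include miR-195b, miR-497b and miR-503-5p. Of 8 X-linked partners of miR-322, 7 were detected nowhere and miR-450a-5p on 1 C + P array, at a signal of 4.64. The readable products of these loci were their 5p strands.

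Other miRNAs known to restrain growth (let-7, miR-26, miR-29 and miR-34 families) had 13 of 17 list members tested. In D against C 6 of them rose and none fell, where 24.2% of all miRNAs passed as higher, with a median of 0.20 over the 13, among them miR-26b-5p by 1.30 (SE 0.33, adjusted p = 0.0097), let-7f-5p by 0.99 (SE 0.29, adjusted p = 0.017) and let-7d-5p by 0.93 (SE 0.24, adjusted p = 0.011), all by limma. MiRNAs linked to proliferation, the miR-17 and miR-106b clusters with miR-21a-5p, miR-199a-3p and miR-590-3p, had 7 of 13 tested. There 4 of the 7 rose and none fell (median 0.66), beside the same 24.2%, with miR-92a-3p at 1.39 (SE 0.20, adjusted p = 0.00084), miR-199a-3p at 0.91 (SE 0.22, adjusted p = 0.0081) and miR-93-5p at 0.71 (SE 0.22, adjusted p = 0.020). In D + P against D 8 growth-restraining miRNAs and 4 proliferation-linked miRNAs fell and none of either list rose, where 27.3% of all miRNAs passed as lower. In C + P against C miR-26a-5p, of the growth-restraining list, fell by 0.34 (SE 0.11, adjusted p = 0.030 by limma). It was the 1 of the 13 to pass as lower, while 3 of the 13 passed as higher. Over all 128 miRNAs 18.8% passed as lower there and 18% as higher. MiR-26a-5p was named after its values were seen.

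Cell type markers were read beside these changes, since fewer cells of a type and less RNA per cell cannot be told apart in whole heart tissue. Of 6 cardiomyocyte miRNAs, 5 were detected on all arrays and miR-208b-3p was not. Summed levels (normalized, linear scale) of the 5 lay between 6390 and 6770 in C, 7950 and 9070 in C + P, 7710 and 8840 in D, and 4910 and 8030 in D + P. Brighter miRNAs weigh more in such sums, here and below. The median log2 change of the 5 in D against C was 0.02. In D against C miR-1a-3p rose by 1.32 (SE 0.26, adjusted p = 0.0035 by limma) and miR-208a-3p, encoded in a cardiac myosin gene, fell by 0.78 (SE 0.18, adjusted p = 0.0073). MiR-133a-3p (0.007, adjusted p = 0.96), miR-133b-3p (0.018, adjusted p = 0.91) and miR-499-5p (0.09, adjusted p = 0.65) did not pass there. The 3 leukocyte miRNAs detected on all arrays, of 6, summed to 25.8–36.3 (C), 56.8–63.2 (C + P), 38.0–52.0 (D) and 11.2–34.1 (D + P). Among them miR-223-3p rose by 1.03 in D against C (SE 0.34, adjusted p = 0.028). In that comparison miR-142a-3p differed by 0.58 (adjusted p = 0.24) and miR-146a-5p by -0.04 (adjusted p = 0.91), and neither passed. Fibroblast and smooth muscle miRNAs (3 of 4 detected on all arrays) totalled 74.8–84.1 (C), 104–123 (C + P), 106–111 (D) and 92.9–120 (D + P). In D against C miR-199a-5p rose by 0.65 (SE 0.15, adjusted p = 0.0073) and miR-143-3p by 0.47 (SE 0.18, adjusted p = 0.047). MiR-145a-5p, at 0.38 (adjusted p = 0.090), did not pass. Red cells are a frequent source of miR-16, and their miRNAs (3 of 4) reached 758–943 (C), 584–747 (C + P), 676–768 (D) and 606–730 (D + P). Of these miR-144-3p fell by 0.57 in D against C (SE 0.18, adjusted p = 0.024). MiR-451a (-0.13, adjusted p = 0.50) and miR-486a-5p (-0.21, adjusted p = 0.38) did not pass. The endothelial marker detected on all arrays, 1 of 2, read 669–719 (C), 802–899 (C + P), 785–797 (D) and 612–775 (D + P). In D + P against D all 3 leukocyte and 2 of the 5 cardiomyocyte miRNAs passed as lower by limma (27.3% of all miRNAs). There 1 red cell miRNA passed as higher (26.6% of all), and no other marker passed. In C + P against C 2 leukocyte, 1 cardiomyocyte and 2 fibroblast and smooth muscle miRNAs passed as higher (18% of all). Of the red cell miRNAs 1 passed as lower there (18.8% of all). The part of cell composition in the family's changes was not tested.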

How the data were processed

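For each of 12 hearts the authors deposited the intensity of 1881 miRNAs on an Agilent array based on miRBase 21 (Feature Extraction 10.7.3.1), with its error and a detection flag; undetected miRNAs are written as 0.1, and no normalization between arrays had been applied. A further table deposited by the authors holds their normalized intensity values and served as an alternative. Groups came from the sample titles. No 2 arrays held identical values.

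The 128 miRNAs detected on all arrays were taken as log2 intensity, brought to a common scale by cyclic loess with a span of 0.7 and 3 iterations (limma 3.58.1, R 4.3.3) and fitted as 4 group means over 12 arrays. P-values were adjusted over the 128 by Benjamini-Hochberg, at a threshold of 0.05, and a miRNA past it is said to pass. The 21 control rows were left out of normalization and tests. Array number limits precision. The fit was tested on simulated data with independent noise and changes in D only. They held no differences in array brightness, slide or row, so that test does not bear on those.

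The members, lists and tests were chosen with earlier results of these data known. Besides the members, named miRNAs are their detected relatives, the 2 most alike profiles for each, and up to 3 of each list with the largest change past the threshold in D against C. MiR-103-3p was added, and miR-195b and miR-6353 were shown, for their sequences. Alternatives covered normalization, detection filter, an offset of 16, the authors' values, the tests named in the methods, a replicate block, each slide alone and each array left out. A covariate from 10 control features was added after the data had been seen.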

Additional observations from a re-analysis of the deposited data

Results flagged for a closer look

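For 4 members the interaction of diabetes and pargyline passed by limma, as it did for 70.3% of all 128 miRNAs, 35.2% as lower. Slide lay with pargyline and array row with diabetes, so the interaction cannot be told apart from them. The log2 interaction was -0.88 for miR-15a-5p, -0.96 for miR-16-5p, -1.24 for miR-195a-5p and -1.70 for miR-322-5p. Each was higher in D than in C and lower in D + P than in C + P by group mean. D + P replicate 1 was the lowest array for all 4. Without it the values were -0.58, -0.80, -0.95 and -1.26 and all 4 passed, as did 87 of the 128 miRNAs. With arrays scaled to the 75th percentile over detected miRNAs miR-15a-5p did not pass (-0.67, adjusted p = 0.066). With the control feature signal as a covariate none of the 4 passed, nor did any of the 128 miRNAs.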

How the results depend on the processing

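MiR-15a-5p, miR-15b-5p, miR-16-5p, miR-195a-5p and miR-322-5p kept the sign of their change in all comparisons under all alternatives but the control feature covariate. Of the 5 members tested, 3 passed in D against C, 2 in C + P against C, 4 in D + P against D, 0 in D + P against C + P and 4 in the interaction. In D against C the count was 1 with each array scaled to its 75th percentile over detected miRNAs or with the authors' values. It was 0 with the methods' t-test, Benjamini-Hochberg or Bonferroni adjusted (4 at an unadjusted p of 0.05), and with the control feature covariate. Of all 128 miRNAs these settings passed 56 and 47, then 23, 2 and 1. In C + P against C the member count was 1 with quantile normalization, the 75th percentile over detected miRNAs or the replicate block. Of all 128 miRNAs 32, 31 and 35 passed there. It was 0 with the filter of detection in at least 1 group (3 at an unadjusted p of 0.05) or the authors' values (2). There 38 of 209 and 29 of 128 miRNAs passed. The members also had 0 with the Bonferroni t-test (5) or the covariate (0), where 2 of 128 passed in each. They had 5 with the 2 groups alone (85 of 128), without normalization or with scaling to the 75th percentile of all miRNAs (96 of 128 in both). The last is no scaling in effect, since most miRNAs are undetected. For D + P against D the member count came to 1 with quantile normalization, where 34 of all 128 miRNAs passed. It was 0 with the 75th percentile over detected or over all miRNAs (2 and 1 at an unadjusted p of 0.05). There 53 and 8 of the 128 passed. The members also had 0 with no normalization (8 of 128) or the authors' values (5 at an unadjusted p of 0.05, 3 of 128 passing). With the 2 groups alone (4), both t-tests (0) or the covariate (2) 0 members passed, as over all 128 miRNAs. In D + P against C + P the member count was 1 with 16 added, where 33 of 128 miRNAs passed. For the interaction it was 0 with the covariate, as over all 128 miRNAs. With the 75th percentile over detected miRNAs it was 3, where 76 of 128 passed and miR-15a-5p did not (-0.67, adjusted p = 0.066 by limma). Leaving out single arrays gave 1 to 4 in D against C, 0 to 4 in C + P against C, 0 to 4 in D + P against D, 0 to 4 in D + P against C + P and 4 throughout in the interaction. Over all miRNAs tested (128 to 131) the counts ran from 33 to 88, 3 to 79, 14 to 89, 1 to 73 and 81 to 96. The replicate block moved no other count of members by over 1.5 times. Replicate numbers did not pair the arrays, as 4 of 18 same-number pairs had a correlation of deviations above 0.1 (-0.37 to 0.49).

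The sign of miR-497a-5p followed the scaling. In D against C it was 0.10 with quantile normalization, 0.036 with the looser filter, 0.018 with 16 added, 0.062 with the covariate, 0.66 without normalization or with the 75th percentile of all miRNAs, and -0.068 to 0.056 without single arrays. Those last 2 scalings also gave 0.76 in C + P against C, -0.25 in D + P against C + P and -0.91 in the interaction, and the 75th percentile over detected miRNAs gave 0.12 in D + P against D. Under the covariate miR-15a-5p turned to -0.077 in D against C, and in C + P against C miR-15a-5p turned to -0.31, miR-15b-5p to -0.12, miR-195a-5p to -0.18 and miR-322-5p to -0.065. The cause of these differences was not tested. MiR-15b-5p, near the floor on C arrays, differed by 0.93 in D against C with 16 added.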
